A study of Mus musculus with 6 samples.

Results

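The gene set described here holds 10 genes of kidney water handling, namely the aquaporin genes Aqp1, Aqp2, Aqp3, Aqp4, Aqp7, Aqp8 and Aqp11, the vasopressin receptor genes Avpr2 and Avpr1a, and the adenylyl cyclase gene Adcy6. They were chosen by gene symbol, and all 10 were found among the 13696 genes of the tables. Kidney RNA had been sequenced in 6 libraries, 3 labelled as a fat-1 knockin (fat-1 here) and 3 labelled WT, from mice that the study's design text gives as 24 months old. The fat-1 gene is a nematode fatty acid desaturase that makes omega-3 fatty acids out of omega-6 ones. The promoter that drives it, the sex and water intake of the mice, and whether each library came from a separate animal are not in the labels, reads of the inserted fat-1 were not analysed here to check the genotypes, and p-values measure only the spread between these libraries. The comparison asks how the fat-1 kidney differs from the WT kidney at this age.

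Vasopressin is the hormone that makes the kidney retain water. It binds the V2 receptor, encoded by Avpr2, on principal cells of the collecting duct, and this receptor raises cyclic AMP through adenylyl cyclase 6. Protein kinase A then phosphorylates the water channel aquaporin-2, which moves to the apical membrane and lets water enter the cell, while aquaporin-3 and aquaporin-4 let it leave across the basolateral membrane. Over longer times the same signal raises Aqp2 transcription. Aquaporin-1 carries the constitutive water flow of the proximal tubule and the thin descending limb.

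Levels are FPKM, a fragment number scaled for transcript length and library size, summed over the listed transcripts of a gene, so they can be compared between genes. Each log2 difference subtracts the WT mean of log2(FPKM + 1) from the fat-1 mean, as fitted by limma, with Benjamini-Hochberg adjustment over the 11698 genes that had at least 1 FPKM in at least 3 libraries. Summed FPKM lay between 387488 and 421497 in fat-1 and between 391237 and 431081 in WT, and the read depth is unknown. The proximal tubule phosphate transporter gene Slc34a1 had 854 to 1357 FPKM in fat-1 and 1135 to 1359 FPKM in WT.

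Fat-1 replicate 3 stood apart in genes of the urinary lining and in some genes of the inner medulla. The 10 inner medulla and papilla genes summed to 475 FPKM in it, against 312 and 268 FPKM in the other fat-1 libraries. They summed to 406 to 463 FPKM in WT, and 6 of 10 were highest in fat-1 replicate 3. The urea transporter gene Slc14a2, a marker of the inner medullary collecting duct and thin limb, was at 5.52 FPKM in that library. It was at 0.00964 and 0.112 FPKM in the other fat-1 libraries and at most 0.130 FPKM in WT. The 8 urothelium markers, all of them highest in that library, summed to 106 FPKM there, against 2.13 and 2.69 FPKM in the other fat-1 libraries and 3.89 to 7.57 FPKM in WT. WT replicate 1 stood apart in immune genes, with 10 macrophage and lymphocyte markers summing to 2314 FPKM, against 329 to 586 FPKM in fat-1 and 267 and 325 FPKM in the other WT libraries. Values without fat-1 replicate 3 are therefore given beside the results that it moves most.

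No gene of the set passed the test across all genes between fat-1 and WT kidneys. Aqp8 did not reach the expression minimum, and 0 of the 9 genes that did passed an adjusted p of 0.05 in limma, where 0.18% of all tested genes passed. At an unadjusted p under 0.05 the count was 1 of 9, the V1a receptor gene Avpr1a, and 9.97% of all tested genes lay under it. The 3 fat-1 libraries lay wholly to one side of the 3 WT libraries in 3 of 9 genes, with 1 lower (Avpr1a) and 2 higher (Aqp3 and Adcy6) in fat-1. Such separation was found in 15.2% of all tested genes, lower in 6.86% and higher in 8.33%. Of the 9 differences, 2 were positive and 7 negative, with a median of -0.24, and the median of all tested genes was 0.01. Without fat-1 replicate 3 the median was -0.45 and 6 of 9 genes were separated, against 25% of all tested genes. Of these, 4 were lower (Aqp1, Aqp2, Avpr2 and Avpr1a), where 13.9% of all genes were, and 2 higher, where 11.1% were. Still 0 of 9 passed, and 0% of all genes did. Leaving out WT replicate 1 as well, 7 of 9 were separated, against 43.7% of all genes. A lower level in whole kidney cannot tell fewer cells of a type from less RNA per cell.

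**Figure D1:**
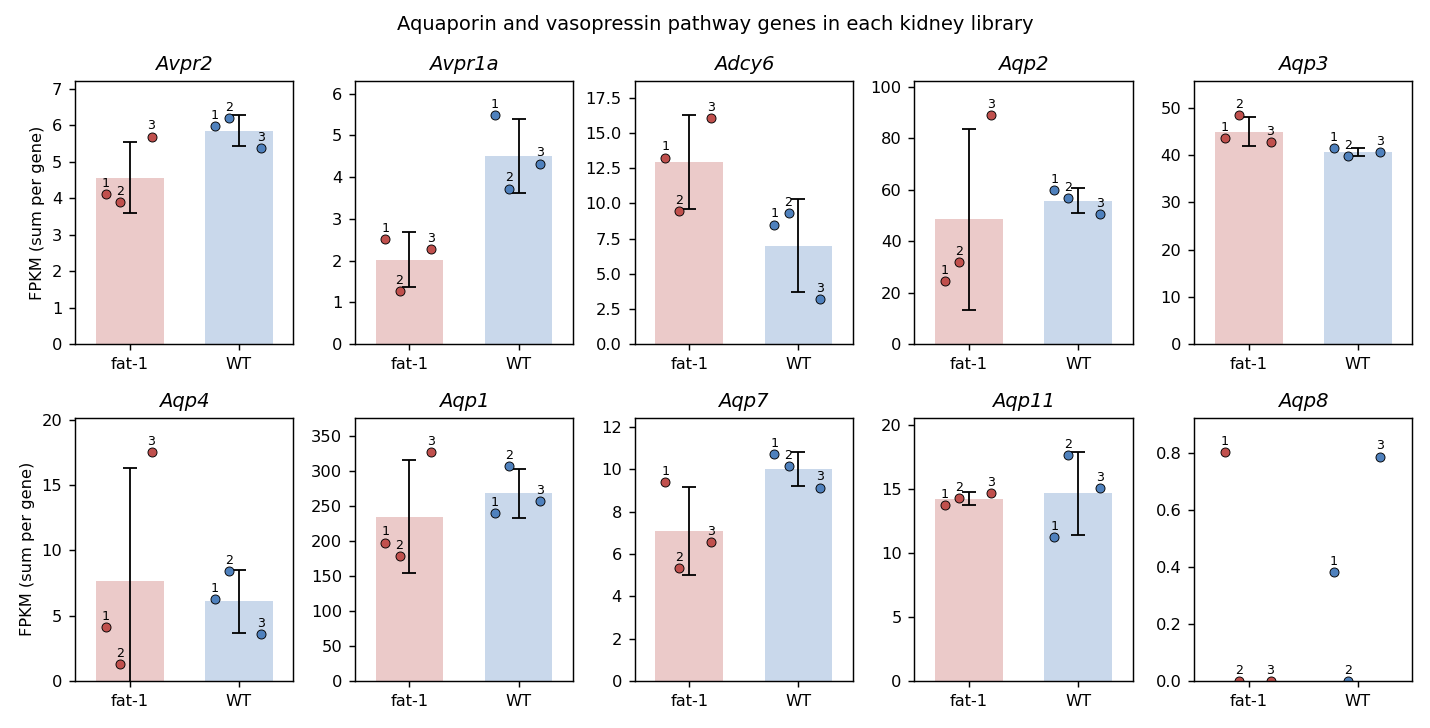
FPKM of each gene in each library, with fat-1 left and WT right; points carry the replicate number, and bars and lines give the mean and SD over 3 libraries (Aqp8, listed at 0 in 3 libraries, has points only). Fat-1 replicate 3 is the highest of all 6 points for Aqp2, Aqp4, Aqp1 and Adcy6, and for Avpr1a all 3 fat-1 points lie below all WT points.

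The receptor genes had low levels in both groups. Avpr2 (chromosome X, 73892102 to 73895502, plus strand, mm10) was at 4.11, 3.896 and 5.69 FPKM in fat-1 replicates 1 to 3, against 5.98, 6.18 and 5.37 FPKM in WT replicates 1 to 3. Replicates 1 and 2 of fat-1 lay below every WT library, and replicate 3 lay among them. Its mean was 4.56 ± 0.979 FPKM in fat-1 and 5.84 ± 0.423 FPKM in WT (SD, n = 3 each). The log2 difference was -0.31 ± 0.17 (SE; 95% interval -0.71 to 0.09; adjusted p = 0.649 in limma). Without fat-1 replicate 3 the difference was -0.45 ± 0.15 (adjusted p = 0.451), and the fat-1 and WT libraries no longer overlapped.

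Avpr1a, which encodes the V1a receptor that signals through calcium in blood vessels and, in the rodent collecting duct, in intercalated cells, had the smallest p of the set. It lies on chromosome 10, 122448499 to 122453452, plus strand (mm10). Its level was 2.51, 1.27 and 2.28 FPKM in the fat-1 libraries, against 5.48, 3.72 and 4.32 FPKM in the WT libraries. The highest fat-1 library was below the lowest WT library. The mean was 2.02 ± 0.658 FPKM in fat-1 and 4.51 ± 0.891 FPKM in WT (SD, n = 3 each), a ratio of 0.448. The log2 difference was -0.88 ± 0.23 (SE; 95% interval -1.42 to -0.34), with an unadjusted p of 0.00627 and an adjusted p of 0.220 in limma, so it failed the correction. Leaving out fat-1 replicate 3 gave a difference of -0.95 ± 0.26 (adjusted p = 0.333 in limma).

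Markers of the cells that carry the V1a receptor were measured beside it. The 12 intercalated cell markers, genes of the acid-base regulating cells, summed to 165 to 179 FPKM in fat-1 and 225 to 245 FPKM in WT, with no marker at 0 in any library. Their median log2 difference was -0.35, and 0 of 12 passed in limma. An unadjusted p under 0.05 was found in 6 of 12, against 9.97% of all tested genes. Separation was found in 6 of 12, all lower in fat-1, where 6.86% of all tested genes were separated and lower. Atp6v1g3, a proton pump subunit gene, was at 21.4 ± 2.02 FPKM in fat-1 and 36.2 ± 3.63 FPKM in WT (SD, n = 3 each; adjusted p = 0.102 in limma), and Atp6v0d2, another, at 11.9 ± 1.44 FPKM in fat-1 and 19.8 ± 1.33 FPKM in WT (adjusted p = 0.108). The 8 smooth muscle and mesangial markers summed to 68.6 to 102 FPKM in fat-1 and 57.5 to 89.0 FPKM in WT, with none at 0. The part of either cell type in the Avpr1a level was not tested.

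The ratio of the receptor genes also differed by library. Avpr2 was above Avpr1a in all 6 libraries, by 1.64, 3.06 and 2.499 times in the fat-1 libraries and by 1.09, 1.66 and 1.24 times in the WT libraries, so fat-1 replicate 1 lay just below WT replicate 2. The hormone gene Avp, the related Oxt, and the receptor genes Avpr1b and Oxtr had no listed transcript and were not analysed here.

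Adcy6, the cyclase that the V2 receptor drives in principal cells (chromosome 15, 98589973 to 98610076, minus strand), had the highest positive difference of the set. It was at 13.2, 9.44 and 16.1 FPKM in the fat-1 libraries, against 8.49, 9.28 and 3.23 FPKM in the WT libraries. The groups did not overlap, but fat-1 replicate 2 exceeded WT replicate 2 by very little, and WT replicate 3 lay far below the other WT libraries. The mean was 12.9 ± 3.33 FPKM in fat-1 and 6.999 ± 3.29 FPKM in WT (SD, n = 3 each), and the log2 difference was 0.87 ± 0.37 (SE; 95% interval -0.01 to 1.76; adjusted p = 0.509 in limma). The difference was 0.47 when WT replicate 3 was left out, with an adjusted p of 0.787. Leaving out fat-1 replicate 3 gave 0.71 ± 0.43, with an adjusted p of 0.749.

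Aqp2, the vasopressin-regulated channel itself (chromosome 15, 99579056 to 99584545, plus strand), varied more within fat-1 than between the groups. Its level was 24.5, 32.0 and 88.8 FPKM in the fat-1 libraries, against 59.8, 56.7 and 50.5 FPKM in the WT libraries. Replicates 1 and 2 of fat-1 lay below every WT library and replicate 3 above every one. The mean was 48.4 ± 35.2 FPKM in fat-1 and 55.7 ± 4.78 FPKM in WT (SD, n = 3 each). The log2 difference was -0.42 ± 0.44 (SE; 95% interval -1.48 to 0.64; adjusted p = 0.874 in limma). Without fat-1 replicate 3 it was -0.96 ± 0.17, with 28.3 FPKM as the mean of the 2 remaining fat-1 libraries and an adjusted p of 0.159. Without fat-1 replicate 1 it was -0.05 (adjusted p = 0.984).

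The 15 other principal cell markers were set beside Aqp2. They summed to 209 to 338 FPKM in fat-1 and 249 to 296 FPKM in WT, 9 of 15 were highest in fat-1 replicate 3, and Elf5 alone was at 0, in fat-1 replicate 2. Their median log2 difference was -0.18 with all libraries and -0.37 without fat-1 replicate 3. Of 14 tested, 4 were positive and 10 negative, 0 passed in limma, and 3 had an unadjusted p under 0.05 (9.97% of all tested genes). With all libraries 3 were separated, all lower in fat-1, where 6.86% of all tested genes were. Without fat-1 replicate 3, 8 were separated and lower, where 13.9% of all genes were. Hsd11b2, the enzyme that guards the mineralocorticoid receptor from cortisol-type hormones and a principal cell marker, was at 53.4, 39.5 and 55.9 FPKM in fat-1 and 51.7, 45.3 and 50.1 FPKM in WT. Relative to Hsd11b2 in the same library, Aqp2 was at 0.459, 0.810 and 1.59 in fat-1 and at 1.16, 1.25 and 1.01 in WT. By this ratio fat-1 replicates 1 and 2 lay below every WT library and fat-1 replicate 3 above every one. Hsd11b2 is 1 of the 15 markers and was chosen after its values were seen. The part of principal cell content in the Aqp2 level was not tested.

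Aqp3, the basolateral channel for water and glycerol in the same principal cells (chromosome 4, 41092722 to 41098183, minus strand), was by contrast even across libraries. It was at 43.6, 48.4 and 42.7 FPKM in the fat-1 libraries, against 41.5, 39.8 and 40.7 FPKM in the WT libraries. All fat-1 libraries lay above all WT libraries, by a small margin. The mean was 44.9 ± 3.08 FPKM in fat-1 and 40.6 ± 0.845 FPKM in WT (SD, n = 3 each). The log2 difference was 0.14 ± 0.10 (SE; 95% interval -0.11 to 0.38; adjusted p = 0.785 in limma). Set against Hsd11b2 in the same library, Aqp3 was at 0.817, 1.23 and 0.764 in fat-1 and at 0.802, 0.878 and 0.812 in WT. By this ratio the groups overlapped. The ratio of Aqp2 to Aqp3 was 0.562, 0.661 and 2.08 in the fat-1 libraries, against 1.44, 1.42 and 1.24 in the WT libraries. Aqp3 was thus the more abundant of the pair in fat-1 replicates 1 and 2, and Aqp2 in the other 4 libraries.

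The promoters of Aqp2 and Aqp3 are printed because these genes of the same cell type had the most and the least variable levels among the abundant members, and that of Avpr1a because it had the smallest p. Each is the RefSeq window on GRCm38.p6 (the assembly behind mm10) from 250 bases before to 50 bases after the annotated start, written 5′ to 3′ along the gene's strand; capitals mark the motifs searched. Windows were found for 8 of the 10 genes; Aqp4 and Adcy6 had none.
Aqp2, chr15:99578806-99579105, plus strand: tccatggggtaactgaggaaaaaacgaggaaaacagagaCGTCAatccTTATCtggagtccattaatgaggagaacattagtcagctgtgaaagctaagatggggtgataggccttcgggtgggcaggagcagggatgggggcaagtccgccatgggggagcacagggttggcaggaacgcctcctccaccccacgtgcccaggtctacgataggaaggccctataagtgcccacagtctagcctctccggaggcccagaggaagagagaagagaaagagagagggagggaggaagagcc
Aqp3, chr4:41098134-41098433, minus strand: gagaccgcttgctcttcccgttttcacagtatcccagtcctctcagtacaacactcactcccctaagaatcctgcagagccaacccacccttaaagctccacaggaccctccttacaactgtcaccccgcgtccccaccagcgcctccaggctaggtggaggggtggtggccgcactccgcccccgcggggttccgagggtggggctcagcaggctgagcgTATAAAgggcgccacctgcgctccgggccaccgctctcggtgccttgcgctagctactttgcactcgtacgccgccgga
Avpr1a, chr10:122448249-122448548, plus strand: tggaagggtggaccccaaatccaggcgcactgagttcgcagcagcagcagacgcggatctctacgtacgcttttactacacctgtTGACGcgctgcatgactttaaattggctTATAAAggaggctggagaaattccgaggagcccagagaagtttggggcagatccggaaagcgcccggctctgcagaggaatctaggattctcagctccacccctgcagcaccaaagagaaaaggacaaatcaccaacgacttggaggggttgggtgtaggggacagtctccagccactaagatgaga
Motifs were searched on both strands. The core of the cyclic AMP response element, TGACG, was found in the Aqp2 window at position -211 from the start, on the opposite strand and so printed as CGTCA, and in the Avpr1a window at position -165; 20.8% of 32851 windows hold it. A GATA factor core, GATAA, was found at position -202 of Aqp2, on the opposite strand and so printed as TTATC (25.4% of windows). The Aqp3 window holds a TATA box, TATAAA, at position -29, and the Avpr1a window holds it at position -137 (13.6% of windows). The full element TGACGTCA (1.79% of windows, overlapping the core where present), the AP-1 site TGANTCA (7.81%) and the core of the tonicity-responsive enhancer, TGGAAA (21.4%), were not in these 3 windows. These are matches of letters, not measured binding.

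Aqp4, the second basolateral water channel of the collecting duct and also present in the mouse proximal tubule S3 segment, had the widest range of the set. It was at 4.14, 1.28 and 17.5 FPKM in the fat-1 libraries, against 6.26, 8.43 and 3.61 FPKM in the WT libraries. Fat-1 held both the lowest and the highest library, and the WT libraries lay between. The mean was 7.66 ± 8.68 FPKM in fat-1 and 6.10 ± 2.41 FPKM in WT (SD, n = 3 each), but the log2 difference was negative, at -0.18 ± 0.73 (SE; 95% interval -1.93 to 1.57; adjusted p = 0.980 in limma). Leaving out fat-1 replicate 3 gave -0.99 ± 0.45, with an adjusted p of 0.625. Leaving out fat-1 replicate 2 gave 0.52 and leaving out WT replicate 2 gave 0.0556, so the direction changed with the libraries included.

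**Figure D2:**
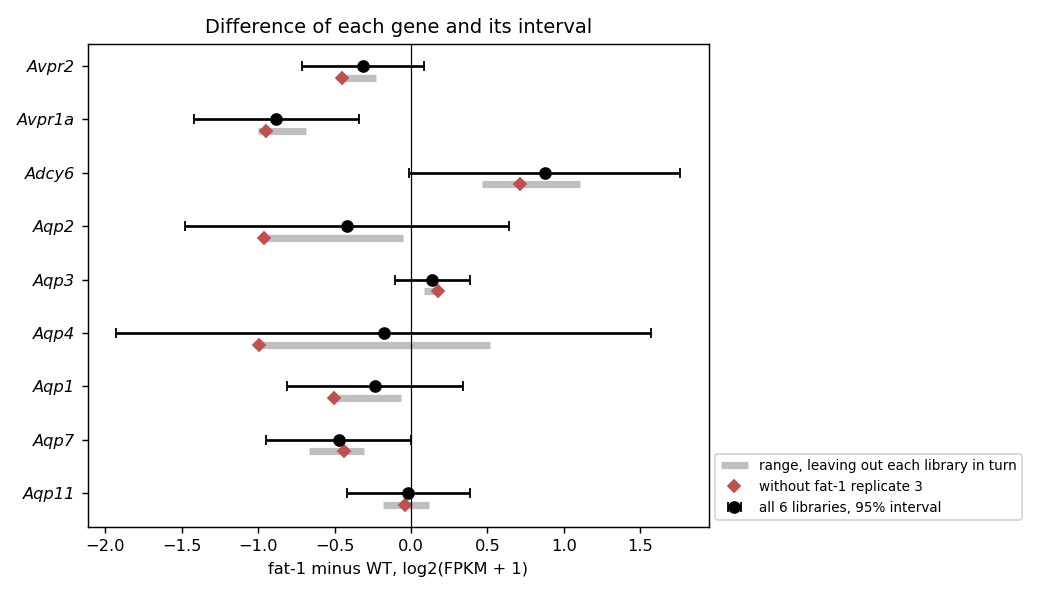
Log2 difference of each gene (log2(FPKM + 1), fat-1 over WT), with all 6 libraries (black, 95% interval), the range over leaving out each library in turn (grey) and the value without fat-1 replicate 3 (red). The interval of Avpr1a, -1.42 to -0.34, lies below 0, and the red points of Aqp2, Aqp4 and Aqp1 lie far left of the black ones.

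Aqp1, the constitutive water channel (chromosome 6, 55336432 to 55348555, plus strand), had the highest level of the set in every library. It was at 198, 179 and 327 FPKM in the fat-1 libraries, against 240, 307 and 257 FPKM in the WT libraries. As for Aqp2, replicates 1 and 2 of fat-1 lay below every WT library and replicate 3 above every one. The mean was 234 ± 80.6 FPKM in fat-1 and 268 ± 34.9 FPKM in WT (SD, n = 3 each). The fitted log2 difference was -0.24 ± 0.24 (SE; 95% interval -0.81 to 0.34; adjusted p = 0.865 in limma), and leaving out fat-1 replicate 3 gave -0.50 ± 0.16 (adjusted p = 0.419). It was nearer to 0 without other libraries, at -0.067 without fat-1 replicate 2, -0.14 without fat-1 replicate 1 and -0.13 without WT replicate 2.

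Several cell types make aquaporin-1, and their markers moved in different ways. Proximal tubule S1 and S2 markers summed to 1944 to 2959 FPKM in fat-1 and 2338 to 2609 FPKM in WT, lowest in fat-1 replicate 3. The 10 thin limb markers summed to 65.5 to 136 FPKM in fat-1 and 46.3 to 65.9 FPKM in WT. Only 5 of them were tested, 2 positive and 3 negative, with a median log2 difference of -0.01, or -0.38 without fat-1 replicate 3. Of the 10, 8 were highest in fat-1 replicate 3. Sptssb was at 8.95 FPKM there and at 0 in fat-1 replicates 1 and 2 and WT replicates 1 and 3. The 12 endothelial markers summed to 207 to 277 FPKM in fat-1 and 108 to 132 FPKM in WT, with none at 0. Of 11 tested, 11 were separated and higher in fat-1, where 8.33% of all tested genes were. The capillary gene Plvap alone passed (adjusted p = 0.0496 in limma), where 0.18% of all tested genes did. Over the tested endothelial markers the median log2 difference was 0.92, or 0.79 without fat-1 replicate 3. In that setting 0 of all 11698 tested genes passed, these markers included. The 8 erythrocyte markers summed to 41.0 to 570 FPKM in fat-1 and 167 to 269 FPKM in WT, with none at 0. The part of these cells in the Aqp1 level was not tested.

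The plot of library profiles sets these patterns side by side. Of the 9 genes above the expression minimum, 4 were highest in fat-1 replicate 3 (Aqp1, Aqp2, Aqp4 and Adcy6) and 5 were lowest in fat-1 replicate 2 (Aqp1, Aqp4, Aqp7, Avpr2 and Avpr1a). On the log2(FPKM + 1) scale and relative to the mean of the 6 libraries, fat-1 replicate 3 was at 0.88 for Aqp2, 1.53 for Aqp4 and 0.41 for Aqp1. In the same library the median over 10 inner medulla and papilla genes was 0.76, over 10 thin limb markers 1.08, over 10 thick ascending limb markers 0.37 and over 8 urothelium markers 2.04. The aldose reductase gene Akr1b3, which makes the medullary osmolyte sorbitol, was at 82.8 FPKM there, against 30.6 and 26.9 FPKM in the other fat-1 libraries and 22.4 to 25.8 FPKM in WT. How much of the kidney's depth each sample contained is not in the labels, and its part in the aquaporin levels was not tested.

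**Figure D3:**
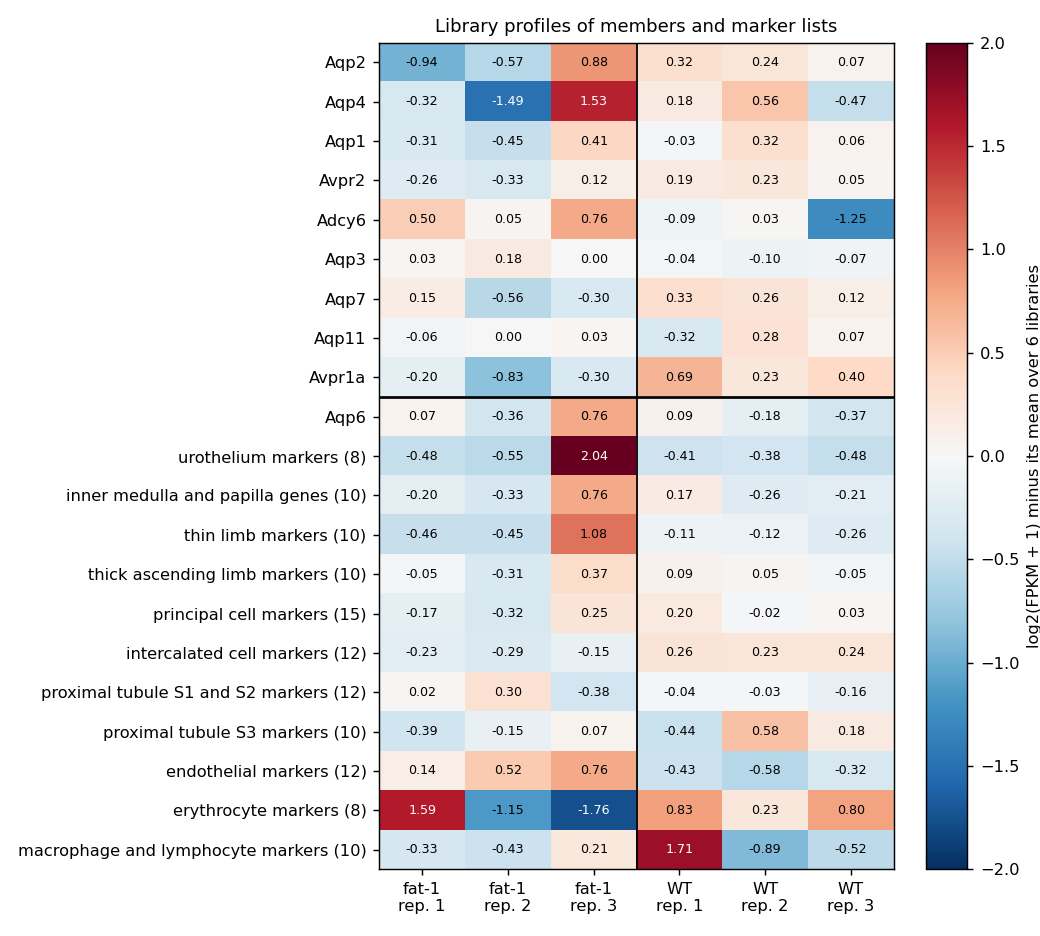
Log2(FPKM + 1) minus its mean over the 6 libraries, for 9 genes of the set and Aqp6 as single genes and for each marker list as the median over its listed genes (number in parentheses); fat-1 columns are left and WT columns right, and colours are capped at 2. Aqp2, Aqp4, Aqp1 and Aqp6 were highest in fat-1 replicate 3, as were the urothelium, inner medulla, thin limb, thick ascending limb, principal cell and endothelial lists.

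Aqp7, a glycerol and water channel of the straight proximal tubule (chromosome 4, 41033074 to 41048139, minus strand), was at 9.38, 5.32 and 6.57 FPKM in the fat-1 libraries, against 10.7, 10.2 and 9.13 FPKM in the WT libraries. Fat-1 replicate 1 overlapped the WT range, and the other 2 lay below it. The mean was 7.09 ± 2.08 FPKM in fat-1 and 10.004 ± 0.808 FPKM in WT (SD, n = 3 each). The log2 difference was -0.47 ± 0.20 (SE; 95% interval -0.95 to 0.00; unadjusted p = 0.0508, adjusted p = 0.502 in limma). The 10 proximal tubule S3 markers summed to 861 to 1324 FPKM in fat-1 and 1046 to 1987 FPKM in WT, with a median log2 difference of -0.38 and none at 0. Fat cells also make aquaporin-7. Their hormone gene Adipoq was at 0, 1.84 and 0.161 FPKM in the fat-1 libraries and 0, 0 and 0.706 FPKM in the WT libraries. The 4 listed adipocyte markers summed to 95.1 to 116 FPKM in fat-1 and 38.5 to 77.4 FPKM in WT. They did not move together: of 2 tested, 1 was positive and 1 negative, and 2 of the 4 were highest in WT replicate 3. On the log2(FPKM + 1) scale, relative to the mean of the 6 libraries, their median overlapped between the groups. It was -0.0228, 0.863 and -0.384 in the fat-1 libraries and -0.885, -0.597 and 0.686 in the WT libraries. The part of these cell types in the Aqp7 level was not tested.

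Aqp11, an aquaporin of the endoplasmic reticulum whose loss gives polycystic kidneys in mice (chromosome 7, 97724006 to 97738289, minus strand), had nearly the same level in both groups. It was at 13.8, 14.3 and 14.7 FPKM in the fat-1 libraries, against 11.3, 17.7 and 15.1 FPKM in the WT libraries. The fat-1 values lay inside the WT range. The mean was 14.3 ± 0.481 FPKM in fat-1 and 14.7 ± 3.23 FPKM in WT (SD, n = 3 each). The fitted log2 difference was -0.02 ± 0.17 (SE; 95% interval -0.42 to 0.38; adjusted p = 0.993 in limma).

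Aqp8, an intracellular channel better known from liver and gut (chromosome 7, 123462312 to 123467986, plus strand), was listed at 0.804, 0 and 0 FPKM in the fat-1 libraries and at 0.383, 0 and 0.788 FPKM in the WT libraries. At these levels no comparison was made. Among the other aquaporin genes looked for, Aqp6, of intercalated cell vesicles, was at 16.7, 12.1 and 27.5 FPKM in fat-1 and 16.9, 13.9 and 12.1 FPKM in WT (log2 difference 0.31 ± 0.29, SE; adjusted p = 0.846 in limma). Without fat-1 replicate 3 the difference of Aqp6 was 0.0041 ± 0.20 (adjusted p = 0.997). The genes Mip, Aqp5, Aqp9 and Aqp12 had no listed transcript and were not analysed here.

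Ordered by the mean over all libraries, the levels ran from Aqp1 at 251 FPKM through Aqp2 at 52.1, Aqp3 at 42.8, Aqp11 at 14.5, Adcy6 at 9.96, Aqp7 at 8.55, Aqp4 at 6.88, Avpr2 at 5.20 and Avpr1a at 3.26 to Aqp8 at 0.329 FPKM. Aqp1 was clear of all others in each library and Aqp8 was last in each. Aqp2 and Aqp3 changed places between libraries, and from Aqp11 down to Avpr2 the ranges of each pair of neighbours in this order overlapped over the 6 libraries. The ranges of Avpr2 and Avpr1a overlapped as well, but Avpr2 was the higher of the pair within each library. Aqp3 and Aqp11 did not overlap.

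The set had 17 listed transcripts, and 15 matched GENCODE release M21 by versioned identifier. Each of 6 genes had 1 listed transcript, while Avpr2 had 3, Adcy6 had 4, and Aqp7 and Aqp11 had 2 each. For Aqp11, the 3-exon transcript Aqp11-205 held between 94.99% and 97.8% of the gene's FPKM in every library.

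Transcript shares were less even in the other 3 genes. Aqp7-202 (6 exons, start at 41045448) and Aqp7-201 (8 exons, start at 41048139) both encode 303 residues. Aqp7-202 was at 5.92, 5.17 and 5.72 FPKM in the fat-1 libraries, against 10.6, 10.02 and 4.06 FPKM in the WT libraries, while Aqp7-201 was at 3.45, 0.150 and 0.852 FPKM in fat-1 and at 0.120, 0.141 and 5.07 FPKM in WT. WT replicate 3 thus had 55.6% of its Aqp7 in the longer form, against 1.11% and 1.38% in the other WT libraries, and fat-1 replicate 1 had 36.8%.

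Adcy6-205 (21 exons, 1166 residues) was at 6.25, 8.24 and 14.8 FPKM in the fat-1 libraries, against 5.47, 7.45 and 2.59 FPKM in the WT libraries, so at this level the groups overlapped. Adcy6-201 (22 exons, 1168 residues) was at 6.37 FPKM in fat-1 replicate 1, where it held 48.1% of the gene, and at 0.234 to 1.96 FPKM in the other 5 libraries. The separation of Adcy6 between the groups therefore rested, for fat-1 replicate 1, on the sum of the 2 forms. Avpr2-203, a short form of 160 residues, was listed at 0 in all 3 fat-1 libraries and in WT replicate 1, and at 0.665 and 0.857 FPKM in WT replicates 2 and 3. The full-length Avpr2-201 alone was at 3.34, 3.70 and 5.16 FPKM in fat-1 and 5.25, 4.70 and 3.65 FPKM in WT, which overlap. How reads were divided between transcripts is not stated in the labels.

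**Figure D4:**
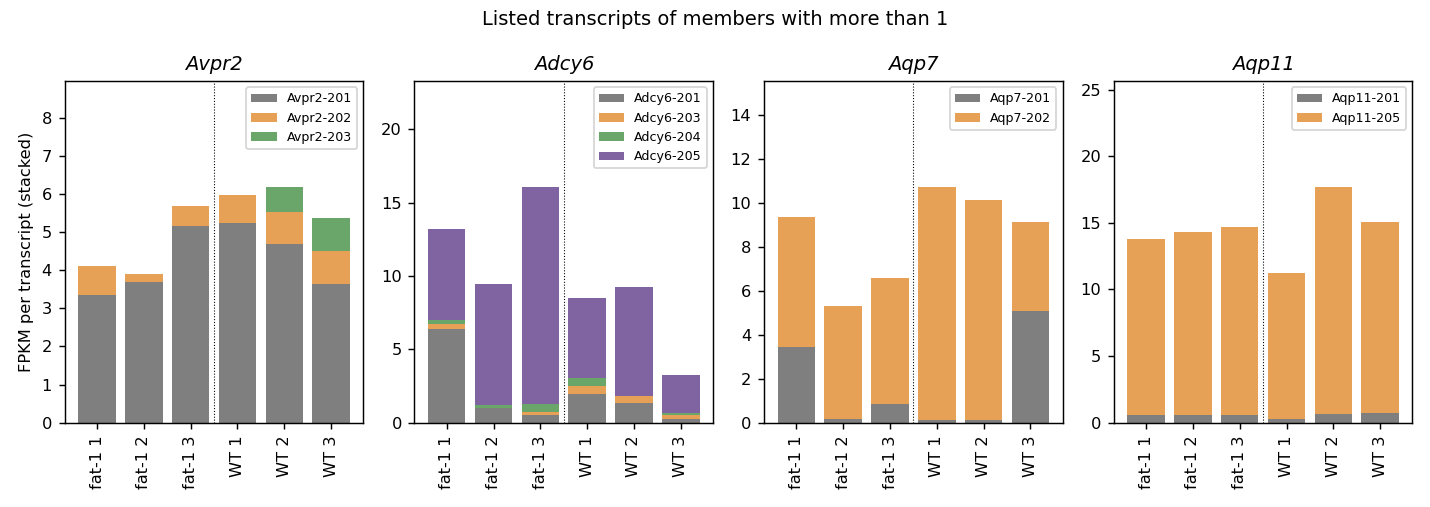
FPKM of each listed transcript, stacked to the gene sum, in the 3 fat-1 libraries (left of the dotted line) and the 3 WT libraries (right). Adcy6-201 is large in fat-1 replicate 1 alone, Aqp7-201 is large in fat-1 replicate 1 and WT replicate 3, and Aqp11 has nearly all its FPKM in 1 transcript.

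The other genes of the pathway were read from lists of cyclic AMP signalling, aquaporin-2 traffic and collecting duct transport. In limma 0 genes of any of these lists were called. Over all tested genes 0.18% were called and 9.97% had an unadjusted p under 0.05. Among 8 tested genes of cyclic AMP production the median log2 difference was 0.05, or -0.0049 without fat-1 replicate 3, with 5 positive and 0 with an unadjusted p under 0.05. Gnas, the stimulatory G protein that couples the V2 receptor to the cyclase, was at 187 ± 52.0 FPKM in fat-1 and 190 ± 38.0 FPKM in WT (SD, n = 3 each). Gnai2, an inhibitory G protein, had the smallest p of the list (log2 difference 0.37 ± 0.18, SE; adjusted p = 0.569 in limma). Of 14 tested genes of protein kinase A, the cyclic AMP sensor Epac and kinase anchors, 11 were positive, with a median of 0.21 and 1 with an unadjusted p under 0.05, Akap1 (0.29 ± 0.12; adjusted p = 0.488), a mitochondrial kinase anchor. Of 11 tested phosphodiesterases, which degrade cyclic AMP, 6 were positive with a median of 0.09, and 1 had an unadjusted p under 0.05. This median was negative without fat-1 replicate 3, at -0.096, and among genes of at least 5 FPKM, at -0.085. The phosphodiesterase gene with an unadjusted p under 0.05 was Pde4b. It was at 4.82 ± 1.18 FPKM in fat-1 and 2.79 ± 0.603 FPKM in WT (SD, n = 3 each, adjusted p = 0.381 in limma).

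The machinery that moves and degrades aquaporin-2 was nearly centred on 0. Of 27 tested genes, 12 were positive and 15 negative, and the median was -0.02, or 0.035 without WT replicate 1. In fat-1, 1 was separated higher and 4 lower, where 8.33% and 6.86% of all tested genes were. The membrane fusion gene Stx3 was at 11.9 ± 1.09 FPKM in fat-1 and 16.7 ± 3.58 FPKM in WT (SD, n = 3 each; adjusted p = 0.442 in limma), the only list member with an unadjusted p under 0.05. Rab7, of late endosomes, was at 108 ± 9.004 FPKM in fat-1 and 135 ± 17.1 FPKM in WT (adjusted p = 0.526).

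Among 21 tested transcription factors named in work on Aqp2 the median was 0.14, or -0.03 without fat-1 replicate 3, and 4 had an unadjusted p under 0.05. Nr1h4, the bile acid receptor FXR, was at 65.7 ± 6.31 FPKM in fat-1 and 45.3 ± 7.08 FPKM in WT (SD, n = 3 each; adjusted p = 0.257 in limma), and Gata2 at 6.91 ± 1.17 FPKM in fat-1 and 4.39 ± 0.695 FPKM in WT (adjusted p = 0.320). The groups did not overlap in either gene, both higher in fat-1, where 8.33% of all tested genes were separated and higher. In the same list 2 other genes were separated and lower, where 6.86% of all tested genes were. Differences over the list ran from -0.70 to 0.55, with 14 positive and 7 negative.

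A list of genes that oppose or tune the V2 response held receptors, the ligand gene Edn1, and Grk, arrestin and Rgs genes. It had a median of -0.02 over 16 tested genes, with 1 unadjusted p under 0.05 in limma. The median of this list was -0.14 without fat-1 replicate 3 and 0.18 without WT replicate 1. The endothelin B receptor gene Ednrb was at 8.34, 4.63 and 5.39 FPKM in the fat-1 libraries, against 3.61, 2.90 and 2.79 FPKM in the WT libraries (log2 difference 0.77 ± 0.22, SE; adjusted p = 0.277 in limma). Endothelium also makes this receptor, and its markers were higher in fat-1 as given above; their part was not tested.

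Other transporters on which vasopressin acts had a median of -0.28 over 8 tested genes, with 2 positive. In fat-1, 1 was separated higher and 3 lower, where 8.33% and 6.86% of all tested genes were. An unadjusted p under 0.05 was found in 5 of 8, against 9.97% of all tested genes. The list shares Slc26a4 with the intercalated cell markers, and Scnn1b and Scnn1g with the principal cell markers. It also shares Kcnj1 and Slc12a1 with the thick ascending limb markers, and Slc14a1 with the endothelial markers. Slc14a2 is also in the thin limb and the inner medulla lists. Some other lists share genes as well, such as Gata3 and Slc4a1, so the lists are not independent. The chloride and bicarbonate exchanger gene Slc26a4 of intercalated cells was at 15.3 ± 3.40 FPKM in fat-1 and 27.5 ± 0.456 FPKM in WT (adjusted p = 0.118), and the kinase gene Sgk1, which raises sodium channel activity, at 46.1 ± 15.9 FPKM in fat-1 and 25.6 ± 5.15 FPKM in WT (SD, n = 3 each; adjusted p = 0.335 in limma). The potassium channel gene Kcnj1 was at 60.1 ± 8.51 FPKM in fat-1 and 79.8 ± 11.7 FPKM in WT (adjusted p = 0.469). The epithelial sodium channel subunit genes Scnn1b and Scnn1g differed by -0.27 ± 0.11 and -0.29 ± 0.12 (SE; adjusted p = 0.489 and 0.478), with all fat-1 libraries below all WT libraries.

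**Figure D5:**
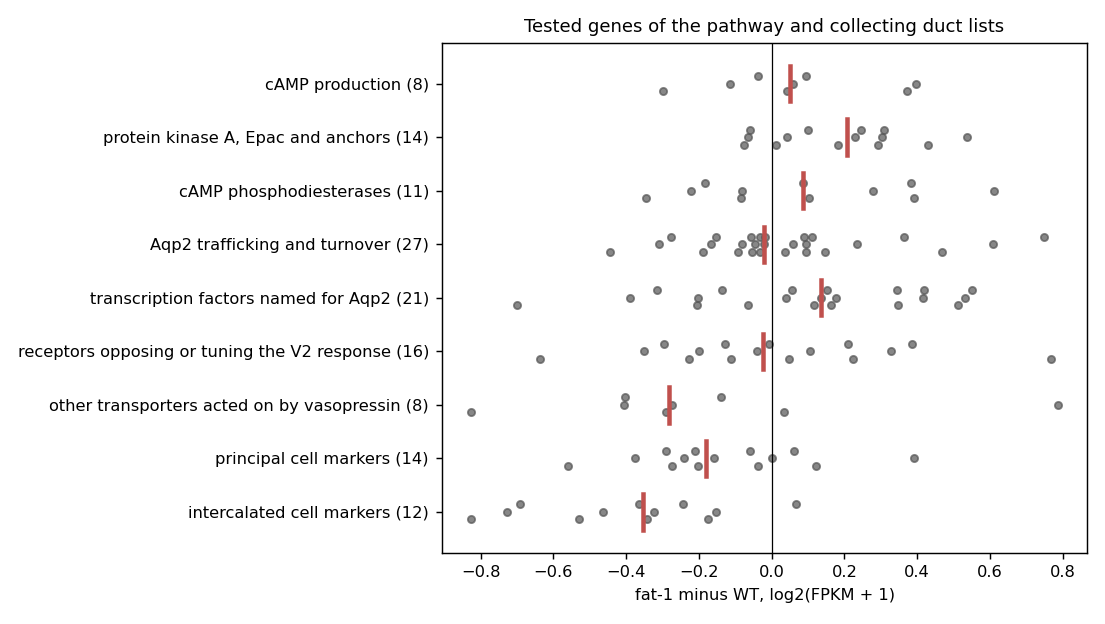
Log2 difference of each tested gene (log2(FPKM + 1), fat-1 over WT), for 7 pathway lists and the principal and intercalated cell markers (number tested in parentheses); grey points are genes, spread vertically only for visibility, and red bars are medians. The medians of the pathway lists lie between -0.28 and 0.21, and that of the intercalated cell markers is -0.35.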

How the data were processed

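Total RNA of mouse kidney was sequenced in 6 libraries, grouped by the genotype label. The authors' deposited tables give FPKM per transcript, in 1 table for each sample. The submitters' processing notes list mm10 and, among the tools, DESeq2 1.20.0, featureCounts 1.5.0-p3 and HISAT2 2.0.5; which program made the FPKM is not stated in them. The 27486 listed transcripts, all protein-coding, all reach 0.5 FPKM in 1 library or more, so a gene sum omits its lower transcripts. Symbols turned into dates were restored (21), and FPKM were summed per gene identifier. Single-transcript genes were searched for steps of whole reads: 20.7% to 25.8% of low values lay within 0.05 of a whole multiple of the best-fitting step, where an even spread gives 10%, so reads were not recovered and depth is unknown.

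The values log2(FPKM + 1) were fitted with limma 3.58.1 (R 4.3.3) for genes that reached 1 FPKM in 3 libraries or more. The variance prior was robust and followed expression level, and there was no covariate or rescaling; this scale understates changes of low genes. The threshold was an adjusted p of 0.05. Alternatives covered scaling, pseudocount, filter, variance estimation, transcript choice and libraries. The 10 genes and all lists were chosen with earlier results of these data known. Genes named are all 10, every gene of a pathway list that passed and otherwise up to 3 of its genes with the smallest p, plus values used beside a result; 1 gene this rule names is not reported here; Slc14a2, Slc34a1, Akr1b3, Hsd11b2, Sptssb, Adipoq and Gnas were chosen after their values were seen. Tables and plots were made in pandas 2.3.3 and matplotlib 3.10.9 under Python 3.11.15.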

Additional observations from a re-analysis of the deposited data

How the results depend on the processing

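Over 17 alternatives, 0 of the 10 genes was called, and the direction of Aqp1, Aqp2, Aqp3, Aqp7, Avpr2, Avpr1a and Adcy6 held in each one that gave a value (146 of 152 gene and alternative pairs kept the direction). The log2 difference of Avpr1a lay between -1.16 and -0.69 (adjusted p between 0.135 and 0.522), that of Adcy6 between 0.47 and 1.11, that of Aqp2 between -0.96 and -0.05, that of Aqp1 between -0.58 and -0.067, that of Avpr2 between -0.45 and -0.13, that of Aqp7 between -0.67 and -0.31 and that of Aqp3 between 0.085 and 0.19. Aqp4 lay between -0.99 and 0.52 and turned to 0.0556 without WT replicate 2 and 0.52 without fat-1 replicate 2. Aqp11, near 0, lay between -0.21 and 0.12 and turned to 0.000333 with equal summed FPKM, 0.12 without WT replicate 2, 0.0116 without WT replicate 3 and 0.0065 without fat-1 replicate 1. Avpr1a failed the filter of 5 FPKM and has no value there, and Aqp8 had one only with no filter. The number of the set's genes with separated groups, 3 with all libraries, was 5 under quantile normalization (16.8% of all genes were separated there), 7 leaving out fat-1 replicate 3 together with WT replicate 1 (43.7%), and between 3 and 6 leaving out each library (22.1% to 32.3%). It was 2 with equal summed FPKM (14.1%), with the highest transcript only (15%) and with at least 5 FPKM (16.5%). Over all genes the count called, 21, was 10 with median-of-ratios factors, 11 with upper-quartile factors, 52 with equal summed FPKM, 34 with quantile normalization, 4 with no filter, 42 with at least 5 FPKM, 3 without the intensity trend, 3 with the highest transcript only, 0 without these 2 libraries, and between 0 and 26 leaving out each library. The causes were not tested. No paired analysis was possible because no label ties a fat-1 sample to a WT sample; the replicate numbers used here only name samples in the order listed. With unknown depth, no counting error can be given for low genes such as Aqp8 and Avpr1a.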

Other observations

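Members with a range of at least 1 on the log2(FPKM + 1) scale over the 6 libraries were Aqp2, Aqp4, Avpr1a and Adcy6. For each, the 3 tested genes with the most similar library profile were found, by the mean absolute difference between profiles centred on their own mean over 6 libraries, among genes with a mean of at least 5 FPKM. Nearest to Aqp2 were Slc5a3, the transporter of the osmolyte myo-inositol, at 0.18, the peptide hormone gene Apela at 0.19 and the phospholipase gene Pla1a at 0.20. Slc5a3 is also in the list of inner medulla and papilla genes, and Apela is among the principal cell markers. Slc5a3 was at 7.90, 8.25 and 25.1 FPKM in the fat-1 libraries and 13.6, 12.8 and 10.9 FPKM in the WT libraries. Nearest to Avpr1a were the fibrillar collagen genes Col1a1 at 0.0748 and Col3a1 at 0.0867, and Rab32 at 0.11. Col1a1 was at 4.99, 2.55 and 3.98 FPKM in fat-1 and 8.14, 5.91 and 6.67 FPKM in WT. Nearest to Aqp4 were Methig1 at 0.22, Ceacam2 at 0.25 and Tmem207 at 0.27, and nearest to Adcy6 were Ppfibp1 at 0.11, Tmcc3 at 0.11 and Nck1 at 0.16. These likenesses are descriptions over 6 libraries, chosen from all genes above that level, with no test.

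Some of these genes are neighbours on mm10. Aqp2 and Aqp6 are 16.9 kb apart on chromosome 15, and both were highest in fat-1 replicate 3. Aqp7 and Aqp3 are 44.6 kb apart on chromosome 4; the ratio of Aqp7 to Aqp3 was 0.215, 0.110 and 0.154 in the fat-1 libraries and 0.259, 0.255 and 0.224 in the WT libraries, so the groups did not overlap. The ratio of Adcy6 to Avpr2 was 3.22, 2.42 and 2.83 in the fat-1 libraries and 1.42, 1.50 and 0.601 in the WT libraries, again without overlap. Both ratios were chosen after the values were seen, and no test was made of them.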
